A study of Mus musculus with 2 samples.

Results

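The cells described here are epithelial cells of the DoubleTg mouse prostate in which spermine-binding protein (Sbp) and its neighbour Sbpl took at least 1000 of every 10000 transcript counts. They were chosen by measured values: among the DoubleTg cells with more than 200 and fewer than 7000 detected genes and less than 15% of unique molecular identifiers (UMIs) from mt- genes, they had at least 1 UMI of Epcam, no UMI of the leukocyte gene Ptprc, and at least 1000 UMIs of Sbp plus Sbpl per 10000 UMIs of the cell. Of 12072 DoubleTg barcodes, 10598 passed the limits, 8458 of these were Epcam+ Ptprc-, and 637 met the rule (7.53%, Clopper-Pearson 95% interval 6.98 to 8.11, counting error only). The other 7821 Epcam+ Ptprc- cells served as the comparison. Since the rule used a readout of these same cells and the genotype has 1 library, every difference below is a description of that library, without a test of the genotype or of the cell type.

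The study profiled prostate tumour tissue of mice by droplet-based 3′ single-cell RNA sequencing, with 1 library for each of 2 genotypes. DoubleTg mice carried hHGFtg, a human HGF transgene active throughout the body, and H11 hMET/+, a human MET cDNA placed behind a CAG promoter and a loxP-flanked STOP cassette at the H11 locus, together with PB-Cre4, in which the probasin promoter drives Cre in prostate epithelium. TripleTg mice carried in addition Ctnnb1 L(Ex3)/+, a beta-catenin allele that Cre converts to a stabilised form. The labels call the DoubleTg tissue adenocarcinoma; the age of the animals and the number pooled are not given in the sources used here.

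The mouse prostate is built of several paired lobes, and the luminal cells of each lobe secrete their own mixture of proteins into the seminal fluid. Sbp encodes an androgen-dependent glycoprotein that binds spermine and is known from the ventral lobe, and Spink1 encodes a small trypsin inhibitor secreted by male accessory glands. Such cells are professional secretory cells: signal peptides carry a few very abundant products into the endoplasmic reticulum (ER) and from there through the Golgi.

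Sbp lies at chr17:23941672-23945607 on the plus strand of GRCm38 and Sbpl at chr17:23953084-23955274 on the minus strand, so their 3′ ends face each other across 7.48 kb. The principal transcripts of the 2 genes, of 833 and 870 bases, aligned with 85.9% identical columns, with a longest identical run of 159 bases that begins 188 bases before the 3′ end of Sbp. Because 3′ libraries read this end, and 176 of the stretches of 90 bases in each transcript also occur in the other, the division of UMIs between Sbp and Sbpl is uncertain and the rule uses their sum. The Sbp and Sbpl windows printed below had 49.2% identical columns, and the Scgb2b27 and Scgb1b27 windows 48.65%. The windows of the upstream Sbp starts were not aligned. The 250 bases before the RefSeq starts (GRCm38.p6) are shown because Sbp and Sbpl define the cells, and because Scgb2b27 and Scgb1b27, a second neighbouring pair, were among the genes highest in them. Capitals mark the AGAACA hexamer of the androgen response element and the TATA box TATAAA, searched on both strands. The windows are chr17:23941668-23941917 (plus strand, the most downstream of 3 Sbp starts), chr17:23955274-23955523 (minus strand), chr7:34013943-34014192 (minus strand) and chr7:34021231-34021480 (plus strand).
Sbp: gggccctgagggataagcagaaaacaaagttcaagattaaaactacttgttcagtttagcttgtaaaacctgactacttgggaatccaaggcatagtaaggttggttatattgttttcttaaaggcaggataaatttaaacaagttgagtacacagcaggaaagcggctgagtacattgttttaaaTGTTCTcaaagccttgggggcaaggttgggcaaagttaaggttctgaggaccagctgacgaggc
Sbpl: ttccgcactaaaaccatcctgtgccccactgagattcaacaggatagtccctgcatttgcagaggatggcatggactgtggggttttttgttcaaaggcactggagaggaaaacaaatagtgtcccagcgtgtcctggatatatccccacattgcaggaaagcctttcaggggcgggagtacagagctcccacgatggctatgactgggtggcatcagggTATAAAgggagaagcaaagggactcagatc
Scgb2b27: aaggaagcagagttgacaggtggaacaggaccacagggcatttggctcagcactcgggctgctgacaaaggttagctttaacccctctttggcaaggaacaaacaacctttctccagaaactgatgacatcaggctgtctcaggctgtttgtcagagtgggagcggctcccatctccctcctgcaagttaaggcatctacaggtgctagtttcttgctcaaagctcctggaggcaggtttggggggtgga
Scgb1b27: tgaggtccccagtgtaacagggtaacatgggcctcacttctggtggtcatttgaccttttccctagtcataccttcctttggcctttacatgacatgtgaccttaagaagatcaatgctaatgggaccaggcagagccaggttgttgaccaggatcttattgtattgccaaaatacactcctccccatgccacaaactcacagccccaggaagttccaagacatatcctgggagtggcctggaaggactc
The Sbp window shown lies almost wholly inside the gene as placed above, since RefSeq gives this start downstream of the GENCODE one. It held AGAACA once, on the minus strand 64 to 59 bases before the start, and the Sbpl window held TATAAA once, 30 to 25 bases before the start. AGAACA was found in 16.1% and TATAAA in 12.4% of 32851 promoter windows of this length, so both motifs are common in such windows. The secretoglobin windows held neither motif, and the windows of the 2 upstream Sbp starts, the one nearest to the GENCODE start included, held neither. The longest run shared by the Sbp and Sbpl windows was 10 bases.

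Sbp and Sbpl together took 35.6% of all UMIs of the 637 cells. Per cell, Sbp had a lowest value of 930 UMIs per 10000, a median of 3303 and a highest of 5988, and Sbpl a lowest of 26.1, a median of 183 and a highest of 523. Sbp exceeded Sbpl in all 637 cells, with a median of 16.6 Sbp UMIs per Sbpl UMI (quartiles 13.1 and 20.9). Of the Sbp and Sbpl UMIs in all DoubleTg cells within the limits, 93.2% lay in the Sbp-high cells. A further 1.98% lay in 39 cells that were over 1000 per 10000 but had no Epcam UMI or a Ptprc UMI, and 2.47% in other Epcam+ Ptprc- cells at 100 or more, of which 716 had 100 to 500, 91 had 500 to 900 and 14 had 900 to 1000. The typical cell held little: the 336 Ptprc+ Epcam- cells, leukocytes that should lack the gene, had a median of 24.5 Sbp and Sbpl UMIs per 10000, and the other Epcam+ Ptprc- cells 13.9, a median below that of the leukocytes, read here as background.

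**Figure D1:**
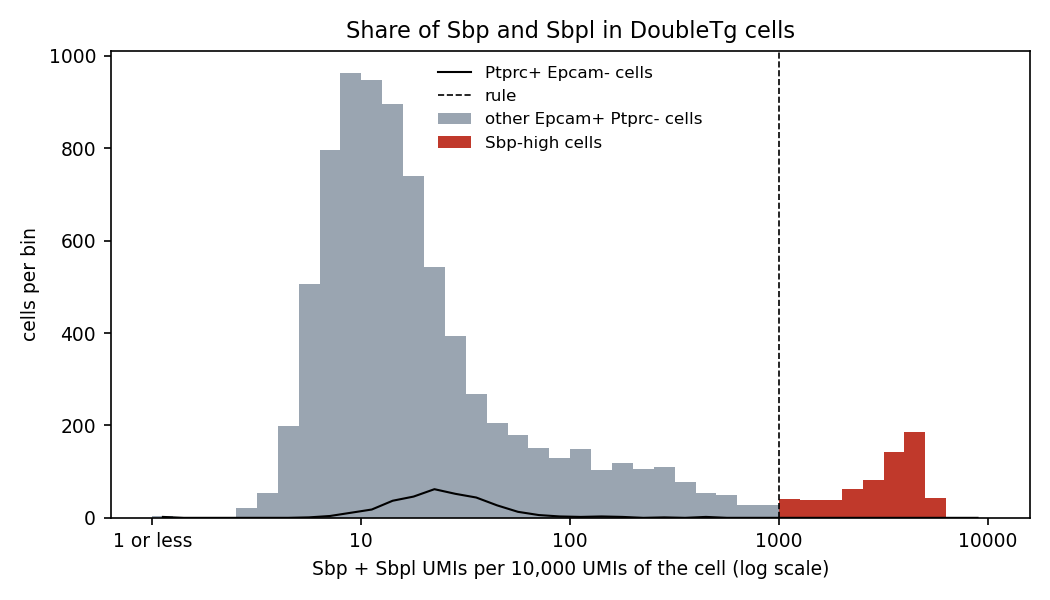
Number of DoubleTg cells (vertical axis) in bins of the Sbp plus Sbpl share (horizontal axis, UMIs per 10000 UMIs of the cell, log scale). Red bars are the 637 Sbp-high cells, grey bars the 7821 other Epcam+ Ptprc- cells, the line the 336 Ptprc+ Epcam- cells, and the dashed line the rule at 1000; the bulk of cells lies near 10, and the Sbp-high cells form a separate mode above 3000.

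The rule falls in a sparse stretch of this distribution. Just inside it, 19 cells had 1000 to 1100 UMIs per 10000, and just outside, 14 cells had 900 to 1000. Spink1 stood at 119493 inside and 127964 outside, in UMIs per 1000000 UMIs other than Sbp and Sbpl, the unit called CPM below, and Wfdc3 at 2067 and 1627. Scgb2b27 was lower inside, at 20.6 against 651, as were Krt5 (0 against 61.4) and Krt14 (1.72 against 36.9). Most Sbp-high cells lay well inside: 162 cells had 3000 to 4000, 183 had 4000 to 5000 and 47 had 5000 or more.

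The Sbp-high cells were deeply sequenced, with 510 to 198279 UMIs and a median of 55586, against 20850 in the other Epcam+ Ptprc- cells. Without Sbp and Sbpl the median was 33353 UMIs, with 4637 genes and 2.62% mt- UMIs. For shares of cells with a UMI, each cell was therefore thinned to 5000 UMIs of genes other than Sbp and Sbpl, which left 536 of the 637 cells (101 were too shallow) and 6663 of the others. A doublet caller marked 10 of the Sbp-high cells (1.57%), which were kept. The 2 libraries shared 30 cell barcodes, 3 of them in Sbp-high cells. In TripleTg, 0 of 7687 Epcam+ Ptprc- cells met the rule, which allows a share of up to 0.039%, taken as 3 counts of the total; the highest cell had 8.59 Sbp and Sbpl UMIs per 10000, and with 1 library per genotype the genotype and the library cannot be told apart.

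The other 3 markers proposed for these cells differed in how widely they were shared. Spink1 was present in 637 of 637 cells, with a lowest value of 1.49, a median of 1248 and a highest of 4548 UMIs per 10000 UMIs without Sbp and Sbpl. A low Spink1 background was widespread, since 92.4% of thinned Ptprc+ Epcam- cells also had a UMI, so the amount and not the presence sets the cells apart. Summed over cells it reached 134821 CPM, against 3502 in the other Epcam+ Ptprc- cells and 719 in the Ptprc+ Epcam- cells, a log2 ratio to the other epithelial cells of 5.27 (conditional binomial 95% interval 5.26 to 5.27, here and below counting error only). Wfdc3, of the whey acidic protein family of protease inhibitors, had a median of 15.8 per 10000 and a highest value of 187, and summed to 2880 CPM against 190 (log2 3.93, 3.91 to 3.94). After thinning, 85.3% of the Sbp-high cells had a Wfdc3 UMI (573 of 637 before), against 19.5% of the others and 13.3% of the Ptprc+ Epcam- cells. Scgb2b27, a secretoglobin, was by contrast a gene of a minority: its median was 0 and its highest value 960 per 10000, and 20.7% of thinned Sbp-high cells (33.8% unthinned) had a UMI, against 1.95% of the others and 1.80% of the Ptprc+ Epcam- cells. Its sum was 718 CPM against 6.06 (log2 6.89, 6.81 to 6.97), and 19.1% of that sum came from 1 cell. Spink1 and Wfdc3 were thus high in most of the cells, and Scgb2b27 in a part of them.

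Most of the cells had luminal keratins. Of the 637, 461 had Krt8 and Krt18 and neither Krt5 nor Krt14, the definition used below for other luminal cells. Krt8 (3275 CPM, lowest 0, median 29.0 and highest 116 per 10000) and Krt18 (3453 CPM), the simple keratins, were present together in 627 of 637 cells, and all 9 luminal markers were detected. Of these 9, 7 had log2 ratios below 0 to the other Epcam+ Ptprc- cells (77.8%, against 67.6% of all genes), with Krt19 at -0.86 and Krt18 at -0.10, whereas the claudin Cldn3 stood at 0.83 and the prostate homeobox factor Hoxb13 at 2.08. Basal keratins were low against the other Epcam+ Ptprc- cells, with Krt5 at 17.4 and Krt14 at 50.2 CPM against 171 and 489. Those other cells include basal cells. Krt5 and Krt14 were not below the Pbsn-high (13.5 and 45.1) or Msmb-high cells (8.65 and 29.5) defined further on. Of the 637 cells, 166 had a UMI of Krt5 or Krt14 and 33 of both. All 8 basal markers compared were at least 2-fold lower (15.4% of all genes). Against other luminal cells, 1 of 5 was higher and 2 lower (4.25% and 12.5% of all genes). Of markers of other cells, all 4 endothelial genes summed to 1.94 CPM, 6 macrophage genes to 10.5 (4817 in the Ptprc+ Epcam- cells) and 5 fibroblast genes to 82.1 (383 in the other epithelial cells), while 1 of 4 T and NK cell genes, 1 of 4 neutrophil genes and 3 of 4 neuroendocrine genes were at 0. In all, 43 cells had UMIs of at least 2 markers of such a non-epithelial class.

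The 15 genes highest in the Sbp-high cells relative to all other Epcam+ Ptprc- cells form no single family. After Scgb1b27, they were led by Ibsp (integrin-binding sialoprotein, a matrix protein known from bone), Scgb2b27, Caln1 (a calmodulin-like protein), Gucy2g (a receptor guanylate cyclase), Col6a3 (a collagen VI chain) and Spink1, followed by Scgb2b7, the potassium channel Kcnk3, the retinoic acid-binding protein Crabp1, Krtap3-2, Wfdc3, the ubiquitin ligase Rnf186, Tac1 (the precursor of substance P) and Ank, which exports pyrophosphate and citrate. Over all genes with at least 5 CPM on either side, 449 of 9173 were at least 2-fold higher (4.89%) and 1415 at least 2-fold lower (15.4%), with a median log2 ratio of -0.25. That median depends on the scaling: it was -0.89 with Sbp and Sbpl in the totals and -0.02 with TMM factors, so the log2 values are best read relative to it.

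**Figure D2:**
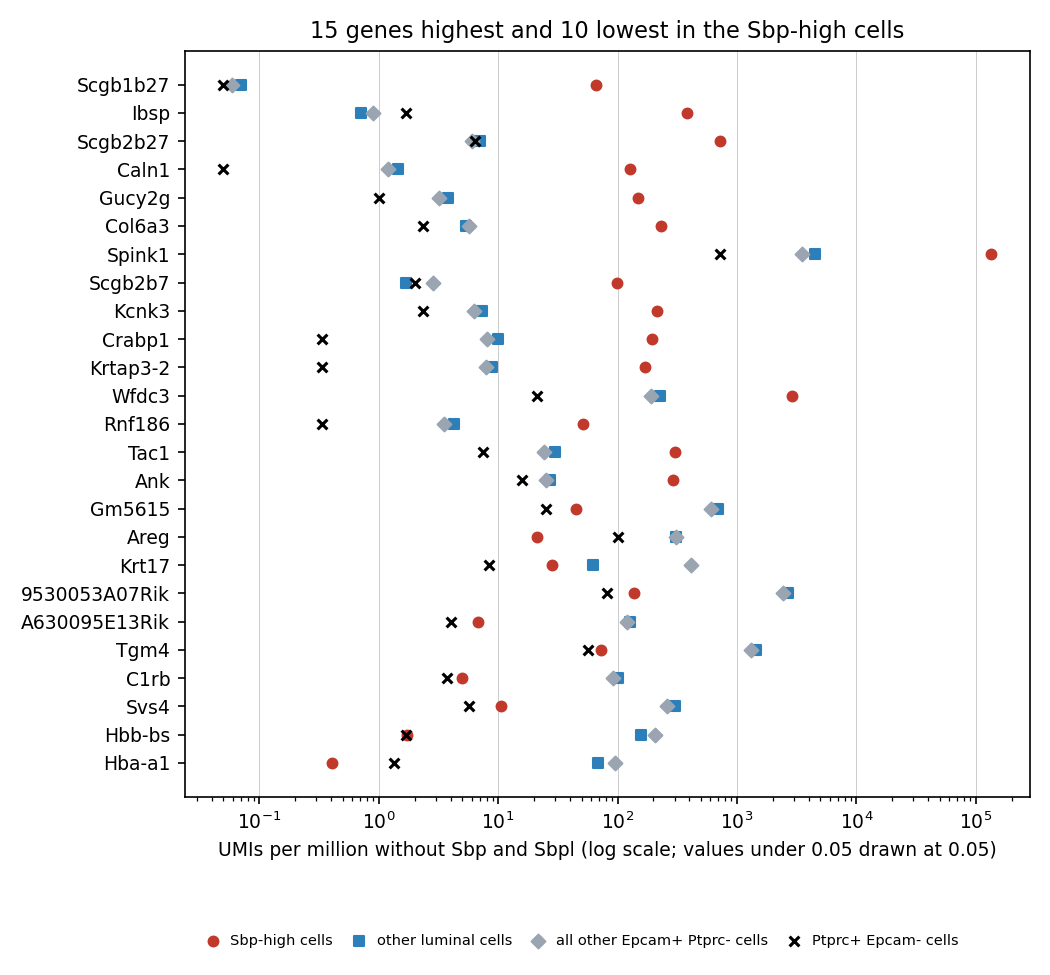
CPM, counted without Sbp and Sbpl (horizontal axis, log scale) of the 15 genes with the highest and the 10 with the lowest log2 ratio, in the Sbp-high cells (red), other luminal cells (blue), all other Epcam+ Ptprc- cells (grey) and Ptprc+ Epcam- cells (crosses); values under 0.05 are drawn at 0.05. Spink1 stands at 134821 in the Sbp-high cells, and for each of the upper 15 genes the red point lies to the right of all others.

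How many cells carried these genes differed widely. Gucy2g was found in 42.7% of thinned Sbp-high cells (74.4% unthinned) against 1.32% of the others, with a median of 0.935 and a highest value of 13.7 per 10000, and Caln1 in 34.3% (53.7% unthinned) against 0.435%, with none of the 336 Ptprc+ Epcam- cells holding a UMI of Caln1. Crabp1 was found in 51.9% against 2.12%, Col6a3 in 51.1% against 2.61%, Kcnk3 in 40.9% against 1.85% and Ank in 61.6% against 9.86%. These genes were thus spread over much of the population. For Ank the sums were 292 and 25.03 CPM (log2 3.54, 3.49 to 3.598), for Col6a3 229 and 5.76 (log2 5.32, 5.22 to 5.41), and for Gucy2g 148 and 3.17 (log2 5.54, 5.42 to 5.66). None of these 6 owed more than 2.56% of its sum to 1 cell.

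For Ibsp, Tac1 and the secretoglobins single cells weighed more, with 10.4% of the Ibsp and 6.76% of the Tac1 UMIs in 1 cell each. Ibsp was found in 27.4% of thinned cells (36.3% unthinned) against 0.540% of the others, with a median of 0 and a highest value of 168 per 10000, and reached 379 CPM against 0.906 (log2 8.71, 8.50 to 8.93). Tac1 was found in 42.7% against 5.66%, with a highest value of 102 per 10000. Scgb1b27 was confined to few cells: 20 Sbp-high cells had a UMI, all 20 of them also had Scgb2b27, and 1175 of the 1466 UMIs (80.2%) lay in 1 cell. Its log2 ratio of 10.13 became 8.21 without the highest cell on each side. Scgb2b7 had UMIs in 53 cells, 35 of which had Scgb2b27. Scgb2b27 and Scgb1b27, whose promoters are printed above, lie 7.54 kb apart in opposite directions.

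The lowest genes included products known from other cells. Hba-a1 and Hbb-bs, globins of red cells, stood at 0.406 and 1.71 CPM against 94.8 and 205 in the other Epcam+ Ptprc- cells, where 11.3% and 12.5% of the UMIs came from 1 cell each. Svs4, a seminal vesicle secretory protein, stood at 10.6 against 262, and 67.8% of its UMIs in the Sbp-high cells lay in 1 cell. Tgm4, a transglutaminase of other prostate lobes, stood at 72.6 against 1308 (log2 -4.17, -4.24 to -4.10), 9530053A07Rik at 139 against 2431, A630095E13Rik at 6.76 against 119, C1rb at 4.96 against 91.3 and Gm5615 at 45 against 605. These 5 were high in the Pbsn-high cells, with 13912 CPM for Tgm4, 28857 for 9530053A07Rik, 1550 for A630095E13Rik, 880.2 for C1rb and 4182 for Gm5615. Krt17, a basal keratin, stood at 28.1 against 413, and the EGF-family ligand Areg at 21.2 against 306. One Sbp-high cell held 13545 of the 14608 Svs2 UMIs of all 637 cells (92.7%), with 12686 Svs5 UMIs and 1179 Sbp and Sbpl UMIs per 10000.

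Against other luminal cells only, defined as the 4388 other Epcam+ Ptprc- cells with Krt8 and Krt18 and without Krt5 or Krt14, the picture was much the same. Of 8989 genes, 382 (4.25%) were at least 2-fold higher and 1127 (12.5%) at least 2-fold lower, with a median of -0.21. The 10 highest genes were Scgb1b27, Ibsp (log2 9.05), Scgb2b27 (6.68), Caln1 (6.46), Scgb2b7 (5.86), Col6a3 (5.40), Gucy2g (5.28), Spink1 (4.91), Kcnk3 (4.87) and Crabp1 (4.28), all of them also among the 15 above. Among the 10 lowest, Reg3b (-4.02) and Reg3g (-3.93), antimicrobial lectins, came in addition to genes already named.

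Of the other Epcam+ Ptprc- cells, those with at least 50 Pbsn UMIs per 10000 were taken as Pbsn-high and those with at least 200 Msmb UMIs per 10000 as Msmb-high, leaving out cells that met both limits, so that the high level of each gene in its own group was fixed by the choice of cells. Pbsn, the probasin gene whose promoter drives the Cre, stood at 176 CPM, against 16623 in the 401 Pbsn-high cells and 95.1 in the Ptprc+ Epcam- cells. Msmb, beta-microseminoprotein, stood at 745, against 29378 in the 319 Msmb-high cells and 218 in the Ptprc+ Epcam- cells. After thinning, 29.3% of Sbp-high cells had a Pbsn UMI and 47.9% an Msmb UMI, against 38.1% and 57.6% of the Ptprc+ Epcam- cells. By cells, these shares are below those of the leukocytes, whereas by level both genes were above them. Of the 536 deeper Sbp-high cells, 41 had 10 or more Msmb UMIs per 10000. By the limits that define those cells, 2 Sbp-high cells were Pbsn-high and 2 were Msmb-high. Of 11 other prostate secretory proteins, 2 were at least 2-fold higher and 5 at least 2-fold lower (4.89% and 15.4% of all genes), with a median of -0.78. Spink5, a protease inhibitor of epithelia, stood at 4566 against 740 (log2 2.62, 2.61 to 2.64), and Pigr, the receptor that carries immunoglobulins across epithelia, at 2025 against 686 (log2 1.56, 1.55 to 1.58), with a median of 12.9 per 10000. Azgp1 stood at 457 against 230 and the defensin Defb50 at 7124 against 11686. Rnase1 was low, at 16.2 against 196.

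Of the 16 protease inhibitors that could be compared of 17, Spink1, Wfdc3 and Spink5 were at least 2-fold higher and 9 at least 2-fold lower, with a median of -1.52. Of all genes 4.89% were higher and 15.4% lower. Among the lower ones were Wfdc2 (164 against 756), Serpinb5 (23.4 against 166), Cst3 (343 against 1281) and Wfdc15b (1.35 against 30.6). Wfdc15b passed the limit of 5 CPM only in the other cells, so that its direction was fixed by the limit. The Kunitz inhibitors Spint1 and Spint2, which restrain activators of HGF, had log2 ratios of -0.54 and -0.46.

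The secretory route itself differed little in its summed transcripts. For ER entry and signal peptide processing, 26 genes had a median log2 ratio of 0.07, with 1 at least 2-fold higher and 0 lower, beside 4.89% and 15.4% of all genes: Sec11c, a catalytic subunit of the signal peptidase, stood at 801 CPM against 379 (log2 1.08, 1.06 to 1.10) and was found in 95.5% of thinned cells against 62.7%. Tram1, which helps chains into the translocon, stood at 285 against 166. The 21 ER to Golgi transport genes had a median of -0.01 with 0 beyond 2-fold in either direction. Chaperones lay lower: 24 genes of ER folding and the unfolded protein response had a median of -0.48, with 1 at least 2-fold higher and 2 lower, Pdia4 and Trib3, and with Hspa5 at 2010 against 2954 (log2 -0.56), Pdia3 at 369 against 712 (-0.95) and Pdia4 at 68.0 against 161 (-1.25). Herpud1, an ER degradation gene, was the 1 that was at least 2-fold higher, at 592 against 253 (log2 1.23, 1.20 to 1.25). All of these medians move with the scaling as the median of all genes does.

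**Figure D3:**
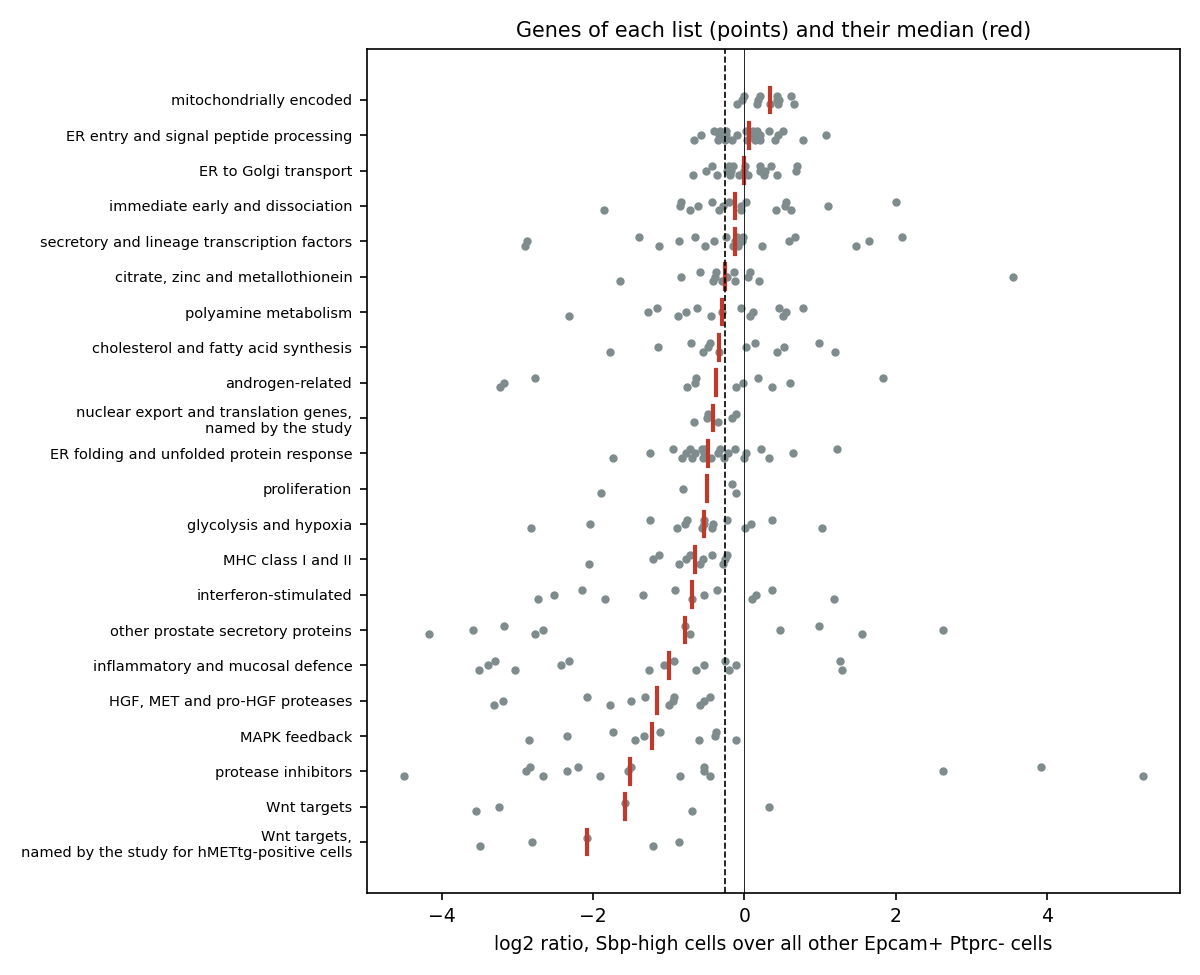
Log2 ratio of the Sbp-high cells over all other Epcam+ Ptprc- cells (horizontal axis) for each gene of a list (points) and the list's median (red). The dashed line is the median of all 9173 genes at -0.25 and the thin line 0; the mitochondrially encoded genes and the ER entry genes lie highest, and the Wnt targets and protease inhibitors lowest, with Spink1, Wfdc3 and Spink5 far to the right of their list.

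Of 21 secretory and lineage transcription factors, 3 were at least 2-fold higher and 4 at least 2-fold lower, with a median of -0.13, beside 4.89% and 15.4% of all genes. Against other luminal cells it was 3 higher and 2 lower of 20. Hoxb13, the prostate homeobox factor, stood at 370 CPM against 87.5 (log2 2.08, 2.04 to 2.12), above its 176 in Pbsn-high and 136 in Msmb-high cells, with a median of 3.21 and a highest value of 54.9 per 10000. Spdef, an ETS factor of secretory epithelia, stood at 28.9 against 9.18 and Creb3l4 at 16.3 against 5.89. Gata2 was low, at 5.37 against 40.1 (log2 -2.90, -3.17 to -2.64), as were Gata3 (35.6 against 78.0), Runx1 (53.3 against 140) and Sox2 (0.857 against 6.26), which passed the limit of 5 CPM only in the other cells. The pioneer factor Foxa1 stood at 113 against 121 (log2 -0.09, -0.15 to -0.03). Of 12 androgen-related genes, Tsc22d3 was at least 2-fold higher (44.7 against 12.5) and 3 at least 2-fold lower, namely Pbsn, Msmb and Ndrg1 (9.47 against 89.1), with a median of -0.37, beside 4.89% and 15.4% of all genes.

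Metabolic lists varied. The 15 polyamine genes, of interest because Sbp binds spermine, had a median of -0.29, with 0 at least 2-fold higher and 3 lower (15.4% of all genes were lower): the synthesis genes Amd1 (499 against 292, log2 0.77), Odc1 (155 against 106, log2 0.55) and Srm (log2 0.50) were above 0, spermine synthase Sms was below (25.3 against 34.3, log2 -0.44), and the spermine oxidase Smox was low (14.9 against 74.5, log2 -2.32). The 14 genes of citrate, zinc and metallothionein had a median of -0.26, with Ank above and Idh1 (9.92 against 31.0) below. The 13 genes of cholesterol and fatty acid synthesis had a median of -0.33, with Insig1 at 31.6 against 13.8. The 16 genes of glycolysis and hypoxia had a median of -0.53, with Bnip3 at 56.8 against 27.9 and Pfkp at 3.11 against 21.9. Pfkp passed the limit of 5 CPM only in the other cells, so that its direction was fixed by the limit. Mitochondrially encoded genes made up 4.51% of UMIs without Sbp and Sbpl against 3.29%, and ribosomal proteins 22.1% against 23.7%.

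Among growth, defence and stress genes, the counts stand beside 4.89% of all genes at least 2-fold higher and 15.4% lower. For proliferation only 4 of 15 genes could be compared; 2 of 536 thinned Sbp-high cells (0.373%) had UMIs of at least 3 of the 15, against 72 of 6663 others (1.08%), and 70 of 637 (10.99%) against 702 of 7821 (8.98%) unthinned. Of 18 immediate early genes, which also respond to tissue dissociation, Atf3 (2263 against 564, log2 2.004) and Btg2 (929 against 430) were at least 2-fold higher and Klf2 (13.9 against 50.2) lower, with a median of -0.12. The 12 MHC genes had a median of -0.65, led by B2m at 940 against 3889 (log2 -2.05, -2.07 to -2.03). H2-Q10, a class I gene outside that list, stood at 93.7 against 9.64 (log2 3.28, 3.19 to 3.37). Of 13 interferon-stimulated genes, Ifi27 was at least 2-fold higher (361 against 159) and 5 at least 2-fold lower, Isg15 among them (25.2 against 111). Of 16 inflammatory and mucosal defence genes, 2 were higher and 8 lower against all other Epcam+ Ptprc- cells. Among them were Cxcl10 at 106 against 44.4 and Lcn2 at 25.7 against 252. Csf3, Il33 and C3, counted among the 8, passed the limit of 5 CPM only in the other cells, so that their direction was fixed by the limit. Against other luminal cells, 1 of 14 was higher and 4 lower (median -0.55).

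The engineered HGF and MET were detected in the Sbp-high cells, at lower summed levels than in the other luminal cells as a whole. HGF is a secreted ligand that is cleaved by serine proteases and signals through the receptor tyrosine kinase MET. hMETtg, the human MET transgene switched on by probasin-driven Cre, had 5382 UMIs in the Sbp-high cells, with a median of 0.608 and a highest value of 29.8 per 10000. After thinning, 243 of 536 cells had a UMI (45.3%, 41.1 to 49.7), against 50.4% of all other Epcam+ Ptprc- cells, 67.8% of other luminal cells, 70.7% of Msmb-high, 48.9% of Pbsn-high and 15.5% of basal cells; in the Ptprc+ Epcam- cells, which free RNA can reach, it was 8.99%, and whether such cells also express the transgenes was not tested. Without thinning the share was 59.8% in the Sbp-high cells and 11.9% in the Ptprc+ Epcam- cells. Its level was 243 CPM against 464 in all other Epcam+ Ptprc- cells (log2 -0.93, -0.97 to -0.89) and 535 in other luminal cells (log2 -1.14). hHGFtg stood at 211 against 408 (log2 -0.95), with 39.0% of thinned cells against 44.97% and 5.76% in Ptprc+ Epcam- cells. The Pbsn-high cells stood at 225 CPM of hHGFtg and 35.9% of thinned cells. Mouse Met stood at 56.1 against 140 (log2 -1.32, -1.40 to -1.23), with 19.4% of thinned cells against 42.2%. All 12 genes of the HGF and MET list had ratios below 0, as had 67.6% of all genes, with 6 at least 2-fold lower (15.4% of all genes) and a median of -1.15, including the urokinase receptor Plaur (132 against 555) and the HGF activator Hgfac (5.28 against 48.1); with all UMIs in the totals the median was -1.78 and with TMM factors -0.92.

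**Figure D4:**
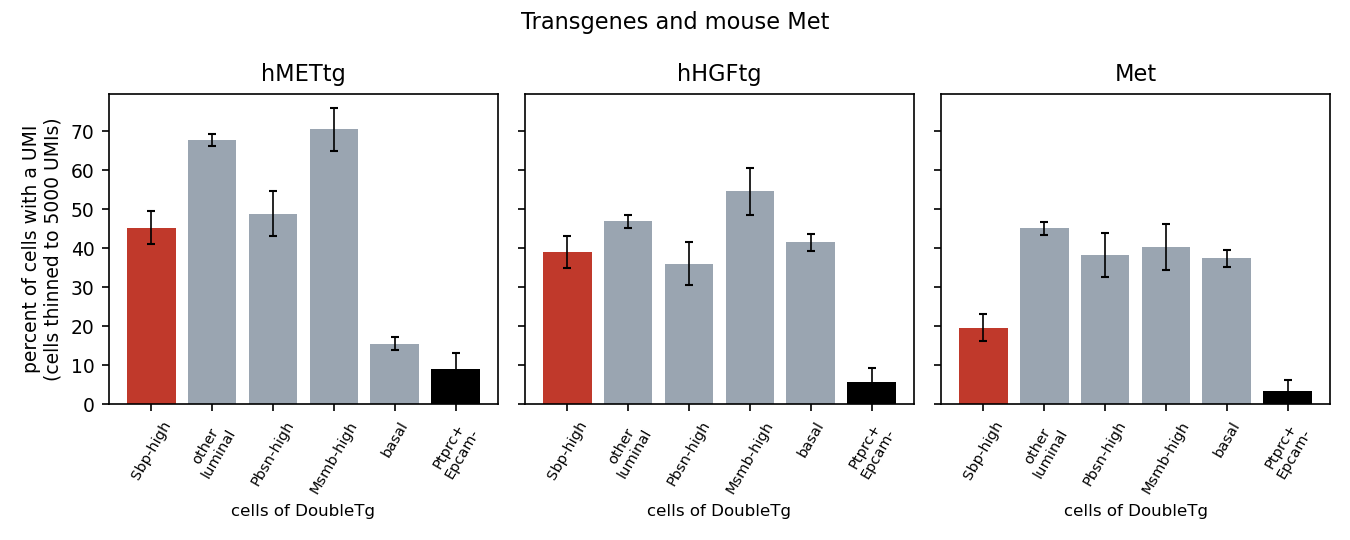
Percent of cells with at least 1 UMI (vertical axis, cells thinned to 5000 UMIs) for hMETtg, hHGFtg and mouse Met in 6 groups of DoubleTg cells (horizontal axis). Error bars are Clopper-Pearson 95% intervals of counting error; the Sbp-high cells (red) stand at 45.3%, 39.0% and 19.4%, and the Ptprc+ Epcam- cells (black) at 8.99%, 5.76% and 3.24%.

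Genes that growth factor and Wnt signals are known to induce were lower in part. Of 10 genes of MAPK feedback, 6 were at least 2-fold lower and 0 higher, with a median of -1.22, where 15.4% of all genes were lower: the phosphatases Dusp6 and Dusp4 stood at 26.0 against 132 and 2.03 against 14.5 (Dusp4 passed the limit of 5 CPM only in the other cells, as did Spry4, also among the 6), whereas Spry1 and Spry2 had log2 ratios of -0.12 and -0.39. Of the 5 Wnt targets that the study named for hMETtg-positive cells, 4 were at least 2-fold lower: the protease Mmp7 stood at 411 against 4631 (log2 -3.50, -3.52 to -3.47), the adhesion receptor Cd44 at 40.3 against 282, Plaur as above and Tcf7l2 at 38.0 against 87.7, while Sox9 stood at 322 against 587 (log2 -0.87). That list was chosen by the study on these samples, so it is not independent evidence of a direction. Of a general list of 12 Wnt targets, 5 could be compared and 3 were at least 2-fold lower, with Ccnd1 at 11.5 against 109 and Myc at 132 against 106 (log2 0.32). Tcf7, also among the 3, passed the limit of 5 CPM only in the other cells, so that its direction was fixed by the limit. All 7 markers of proximal and urethral luminal cells were at least 2-fold lower, Clu at 2509 against 21982 among them. Summed, the 7 stood at 3144 CPM, against 5287.5 in Pbsn-high, 17148 in Msmb-high and 24734 in all other Epcam+ Ptprc- cells. At least 3 of them were found in 24.8% of thinned Sbp-high cells, 15.2% of Pbsn-high and 51.1% of Msmb-high cells. Low levels of these markers were thus not particular to the Sbp-high cells.

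Within the Sbp-high cells, those with and without an hMETtg UMI after thinning to 5000 UMIs were set side by side, 243 hMETtg-positive and 293 hMETtg-negative cells. Negative refers to the thinned counts: 42.7% of the 293 had an hMETtg UMI before thinning. To keep single cells from deciding a ratio, the highest cell of each gene was left out on each side, a step chosen after seeing that 1 cell held most seminal vesicle UMIs. Of 2294 genes with at least 50 CPM on either side, 24 were at least 2-fold higher in the hMETtg-positive cells (1.05%) and 1 at least 2-fold lower (0.0436%). Mouse Met was among the highest, with 109 thinned UMIs against 26, or 89.7 against 17.7 CPM (log2 2.34 with all cells, 1.71 to 3.01; 2.46 without the highest cells). How reads were divided between the human and the mouse MET sequence is not given in the sources used here, and cross-alignment was not tested. Markers of other cells moved with it: of 5 proximal and urethral luminal markers, 3 were at least 2-fold higher, with a median of 1.06 without the highest cells, Clu at 2942 against 997 and Psca at 208 against 52.6. The smooth muscle genes Acta2 (38 thinned UMIs against 5, 63.2% of the 38 in 1 cell) and Tagln (43 against 9) were also higher, and 2.47% of the hMETtg-positive against 1.02% of the negative cells were marked as doublets. The part of these cells in the differences was not tested. Tgm4 stood at 99.6 against 21.2. Met, Tgm4 and Cd44 passed the limit of 50 CPM only in the hMETtg-positive cells, where they were high, so that their ratios had to be above 0. The 5 Wnt targets named by the study had unlike ratios, Cd44 at 52.7 against 15.7 (log2 1.75, 1.04 to 2.50), Mmp7 at 535 against 177 (1.59), Plaur at 168 against 71.7 (1.23), Sox9 at 371 against 248 (0.58) and Tcf7l2 at 38.7 against 36.2 (0.10, -0.50 to 0.69). Tcf7l2 was under the limit on both sides. hHGFtg stood at 309 against 124 (log2 1.32, 1.06 to 1.58). Spink1 was lower by little, 118287 against 140594 CPM (log2 -0.25), and the interval of Hoxb13 included 0 (log2 -0.12, -0.30 to 0.06). Among the lowest were Gm10260 (95.5 against 240), Mrps26, Auh, Bcl2l14 and Fubp1. All but Gm10260 differed by less than 2-fold and passed the limit of 50 CPM only in the hMETtg-negative cells. Their ratios therefore had to be below 0. The hMETtg-positive cells had a median Sbp and Sbpl share of 3311 per 10000 and the negative cells 3718, and their median depth was 40463 and 34460 UMIs before thinning.

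The Sbp and Sbpl share, the value by which the cells were chosen, also varied among them, and what goes with it is given as a description only. The upper 213 cells, with 4097 or more per 10000, were compared with the lower 212, with at most 2705.1. Without the highest cell of each gene, 17 of 2319 genes with at least 50 CPM on either side were at least 2-fold higher in the upper cells (0.733%) and 78 at least 2-fold lower (3.36%). The highest were Ibsp (793 against 50.5 CPM), Scgb2b27 (1287 against 242), H2-Q10 (155 against 33.9), Caln1 (199 against 46.4) and Cxcl10 (185 against 63.0). Wfdc3 stood at 3522 against 2218 (log2 0.67) and Hoxb13 at 445 against 281 (log2 0.66). The lowest were Wfdc2 (19.4 against 399), Cxcl17 (6.85 against 123), Ly6c1 (10.7 against 134), Pglyrp1 (5.71 against 70.6) and Msmb (184 against 1518). All 5 proximal luminal markers that passed the limit were at least 2-fold lower in the upper cells, Clu at 713 against 5392 and Psca at 37.2 against 377. Mmp7 stood at 96.4 against 1015 and Cd44 at 12.3 against 73.6. Wfdc2, Cxcl17, Ly6c1, Pglyrp1, Psca and Cd44 passed the limit only in the lower cells, and H2-Q10 and Caln1 only in the upper cells, so that the direction of their ratios was fixed by the limit. hMETtg was 188 against 310 CPM (log2 -0.72, -0.82 to -0.62). The caller marked 0 doublets in the upper and 6 (2.83%) in the lower cells. Over the 536 deeper cells, with thinned counts, Spearman's rho with the share was 0.33 for Gucy2g, 0.27 for Ibsp and -0.25 for Clu, as a description of cells that share a library.

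Spink5 divided the cells into those with much and those with almost none. Among the 536 deeper cells, 203 (37.9%) had at least 10 Spink5 UMIs per 10000, with 86 between 100 and 300, while 296 (55.2%) had less than 1, 23 had 1 to 3 and 14 had 3 to 10. The limit of 10, and those used for single genes below, were set after seeing these distributions. Spink5-high cells had 11326 CPM of Spink5 and the others 60.4, near the 40.3 of the Ptprc+ Epcam- cells. Without each gene's highest cell, 12 of 2269 genes were at least 2-fold higher in them (0.529%) and 6 lower (0.264%). Higher were Wfdc2 (275 against 91.4), Cxcl17, a mucosal chemokine (87.8 against 26.6), Tgm4 (128 against 33.2), Scgb2b7 and 9530053A07Rik, and lower were Ibsp (175 against 518), H2-Q10 (44.2 against 127), Msmb (436 against 947), Defb1 and Tyw1. Of the genes with printed values, Cxcl17 and Tgm4 passed the limit of 50 CPM only in the Spink5-high cells, and H2-Q10 only in the others. The direction of these ratios was thus fixed by the limit. Spink1 (113769 against 148494) and Pigr (2549 against 1684) differed by less than 2-fold. The median Sbp and Sbpl share was 2960 in the Spink5-high and 3807 in the other cells.

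**Figure D5:**
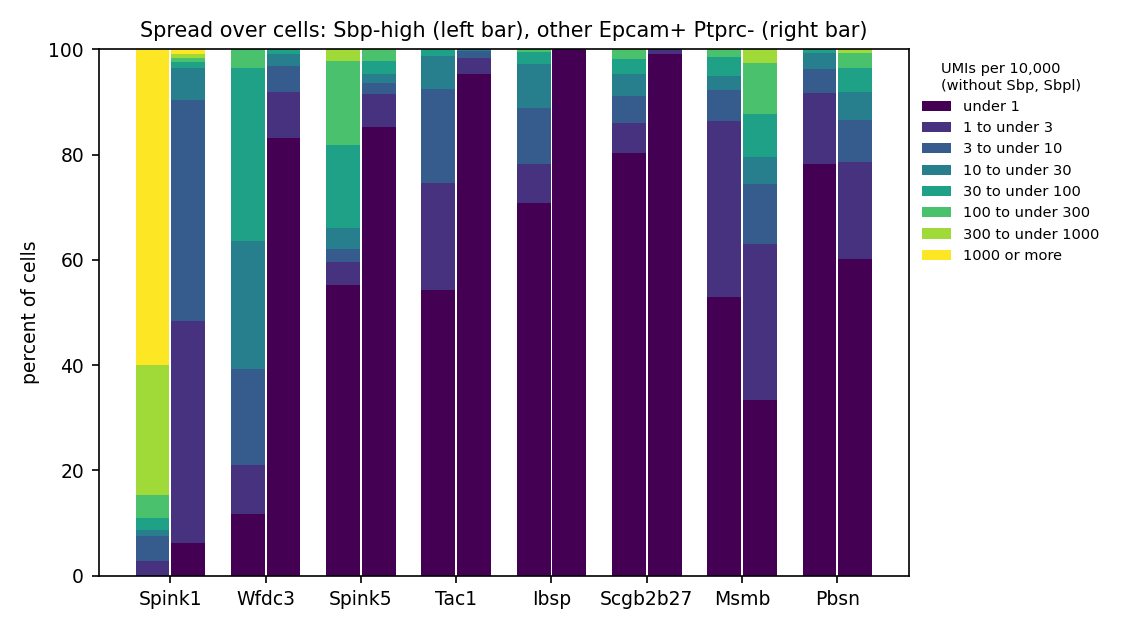
Percent of cells (vertical axis) by level of 8 genes (horizontal axis), in colours from under 1 to 1000 or more UMIs per 10000 without Sbp and Sbpl. Left bars are the 536 Sbp-high cells and right bars the 6663 other Epcam+ Ptprc- cells with at least 5000 such UMIs; 55.2% of the Sbp-high cells are under 1 for Spink5 and 80.2% for Scgb2b27, while 59.9% have 1000 or more Spink1 UMIs.

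Spink1 was not uniform either. In 321 of the 536 deeper cells (59.9%) it was at 1000 or more per 10000 and in 133 (24.8%) it lay between 300 and 1000, but 59 cells (11.01%) had less than 100, of which 15 had 1 to 3 and 25 had 3 to 10. These Spink1-low cells had a median Sbp and Sbpl share of 2960 per 10000 and 37279 UMIs without Sbp and Sbpl, against 3612 and 37019 in the rest, and 0 of them were marked as doublets. They were thus as deep as the other cells. Wfdc3 was present in most of them: 40 of the 59 had at least 10 per 10000, against 326 of all 536. Spink1 is part of the totals, so little Spink1 raises the CPM of other genes: the median log2 ratio over genes was 0.24. Without each gene's highest cell, Cxcl2 and Crip1 had log2 ratios of 1.11 and 1.03, under 2-fold relative to that shift, and Scgb2b7 lay far below (5.59 against 111 CPM). Scgb2b7 passed the limit of 50 CPM only in the cells with more Spink1, so that its direction was fixed by the limit.

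Scgb2b27 reached at least 1 UMI per 10000 in 106 of the 536 deeper cells (19.8%), and 27 of the 637 cells had 100 or more UMIs. The 106 cells overlapped in part with the other uneven genes: 36 of them were Spink5-high, 49 of them had at least 1 Ibsp UMI per 10000 and 62 had Tac1 at that level, of 203, 157 and 245 cells of the 536 in all. As shares of these cells that is 17.7%, 31.2% and 25.3% that were also Scgb2b27-positive, where 19.8% of all were. Ibsp stood at 875 CPM in Scgb2b27-positive cells against 247 in the rest, and Scgb2b7 at 450.4 against 5.43. Scgb2b7 passed the limit of 50 CPM only in the Scgb2b27-positive cells, so that its direction was fixed by that limit. The median Sbp and Sbpl share of the Scgb2b27-positive cells was 4136 per 10000, against 3421 in the cells with less Scgb2b27.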

How the data were processed

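The authors sequenced droplet-based 3′ libraries, 1 per genotype, and deposited raw UMI counts per gene and cell made with Cell Ranger (6.0.2 in the submitters' processing notes, 6.1.1 in the header of the DoubleTg matrix) on mm10 with the hHGFtg and hMET sequences added. The deposited counts were read with Python 3.11.15, numpy 2.4.6 and scipy 1.17.1. Cells with more than 200 and fewer than 7000 genes and under 15% mt- UMIs were kept; scrublet in scanpy 1.11.5 marked 273 doublets (2.58%), which were kept. Counts were summed over cells and scaled to 1000000 UMIs other than Sbp and Sbpl (CPM), with sums under 3 set to 3; TMM factors came from edgeR 4.0.16. Ratios have conditional binomial, shares Clopper-Pearson 95% intervals, which cover counting error only. With 1 library per genotype no test was made. Genes needed 5 CPM on either side. Named genes were those of the lists, or the 15 highest and 10 lowest ratios (10 and 10 against other luminal cells, 5 and 5 within the Sbp-high cells) from 50 CPM; H2-Q10 against other cells, and the genes named in the Spink5, Spink1 and Scgb2b27 comparisons, were chosen after their values were seen. Members and lists were chosen with earlier results of these data known. Of 480 list genes, 3 had no feature. Promoters are RefSeq, transcripts GENCODE vM21. Scripts were tested on simulated data. The alternatives tried were other scalings, filters, limits, comparison cells and thinning. Some genes are not reported here.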

Additional observations from a re-analysis of the deposited data

How the results depend on the processing

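The 449 genes at least 2-fold higher became 162 with all UMIs in the totals, 684 with TMM factors, 228 from 20 CPM and 5536 without a filter, which adds genes of few UMIs. The 1415 lower genes became 3839 with all UMIs in the totals, 674 from 20 CPM and 3228 without a filter. Putting Sbp and Sbpl in the totals lowers every other ratio by construction. All 25 named genes with alternatives had the same sign in 14 alternatives, as did 22 of 30 list medians. The exceptions were lists near 0 (ER entry, ER to Golgi, transcription factors, immediate early, cholesterol, ribosomal and mitochondrially encoded genes) and the basal list, whose median was 0.32 against other luminal cells, which lack Krt5 and Krt14 by definition; over the 5 basal genes with 5 CPM in that comparison it was -0.44. The share of Sbp-high cells with hMETtg, 45.3% after thinning, was 59.8% with all UMIs of a cell and 40.7% where luminal keratins were required on both sides, an alternative chosen after seeing the data. The hMETtg log2 ratio of -0.93 was -1.57 with all UMIs in the totals, -0.70 with TMM factors, -1.14 against other luminal cells, -1.01 from 2000 Sbp and Sbpl UMIs per 10000, -0.88 without limits on genes and mt-, -0.69 in thinned cells, -0.70 with equal weight per cell and -0.98 without cells holding markers of other lineages. It was -1.22 with luminal keratins on both sides and -0.73 with Spink1 also left out of the totals, both chosen after seeing the data. It was below 0 in each of these; the cause of the spread was not tested. No paired analysis was possible because each genotype has 1 library. That single library, free RNA and the shared reads of Sbp and Sbpl limit every value.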

Other observations

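Spink1 was also found in other Epcam+ Ptprc- cells, with its highest levels in those next below the limit on Sbp and Sbpl: it stood at 127964 CPM in cells with 900 to 1000 Sbp and Sbpl UMIs per 10000, 73749 with 500 to 900 and 44207 with 100 to 500, against 2340 with 10 to 100 and 573 with under 10. Of the 6663 with enough depth, 0.885% had 1000 or more Spink1 UMIs per 10000 and 0.855% had 300 to 1000, against 59.9% and 24.8% of the Sbp-high cells. In the Msmb-high cells Wfdc3 stood at 784 CPM, between the 2880 of the Sbp-high cells and the 21.2 of the Pbsn-high cells. In the Epcam+ Ptprc- cells of TripleTg, Spink1 had 146 CPM and Wfdc3 1.64.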
